A study of Caenorhabditis elegans with 14 samples.

Results

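Gene expression in *mir-60;spe-9* animals at Day 10 of adulthood was compared with that at Day 7, with both libraries made from animals kept on paraquat (PQ) 5 mM at 23.5 °C. Genes were kept if their longest transcript had at least 200 bases, if the mean of both libraries was at least 1 FPKM (fragments per kilobase of transcript, scaled to the number of mapped reads) and if neither library listed them at exactly 0. These conditions left 12254 of the 41560 gene symbols in the deposited values. Polyadenylated RNA of whole *C. elegans* was sequenced in 5 groups and 7 libraries, and each library was run on 2 lanes that were merged before the values were made, which gives 14 samples. All animals carried *spe-9(hc88)*, a temperature-sensitive sperm mutation that makes hermaphrodites sterile at 23.5 °C, and the double mutant also carried the deletion *mir-60(n4947)*. The groups were *spe-9* at Day 0 (2 libraries), *mir-60;spe-9* at Day 0 (2 libraries), *spe-9* at Day 7 (1 library), and *mir-60;spe-9* at Day 7 and at Day 10 (1 library each). Day 0 animals were young adults taken before PQ, and the 3 later libraries came from animals on PQ 5 mM and FUDR 325 µM, an inhibitor of DNA synthesis used to stop progeny from developing. Day 10 was chosen as the survival midpoint of the double mutant under PQ, and Day 7 is the corresponding time of the *spe-9* control.

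MicroRNAs are short RNAs that bind messenger RNAs, mostly in their 3′ untranslated regions, and lower their stability or translation, and miR-60 is known as a microRNA of the intestine. PQ is a herbicide that accepts electrons from the respiratory chain and passes them to oxygen, which yields superoxide. Worms meet such chemicals and oxidants with conjugating enzymes, among them glutathione S-transferases and UDP-glucuronosyl transferases, and meet microbes and wounds with secreted peptides and lectins made in the epidermis and intestine.

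With 1 library at each time, no test could be made between Day 7 and Day 10. The scale for noise was taken from the Day 0 replicates of the same strain, over the same 12254 genes. A difference is log2(FPKM + 0.5) at Day 10 minus that at Day 7, so that changes at low FPKM appear smaller than they are. "Rose" and "fell" are used below only for genes that changed over 2-fold and beyond a noise limit. The limit is the 99th percentile of the absolute difference between the Day 0 replicates, among genes of like mean level at Day 7 and Day 10. The level of a gene at Day 0 can differ from that of its class. This limit lay between 0.75 and 2.34 on the log2 scale in the 20 classes of level. Whether animals at Day 7 and Day 10 vary as little as young adults is not known, and for the genes described at length the values at Day 0 and in *spe-9* are therefore given beside the difference. In whole animals, fewer cells of a type and less RNA per cell cannot be told apart.

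More genes were lower than higher at Day 10. Past 2-fold, 168 genes were higher (1.37% of all kept) and 515 were lower (4.2%), while 257 genes (2.1%) differed over 2-fold in either direction between the Day 0 replicates. Past both limits, 105 genes rose (0.857%) and 246 fell (2.01%). Of these, 102 and 231 also differed by more than their own difference between replicates in either strain at Day 0. The noise limit is the 99th percentile between the Day 0 replicates, so genes above that percentile pass it there by construction, in either direction. The number past both limits between those replicates was not counted. The shares of 0.857% and 2.01% therefore have no replicate share to be read against. The SD of the difference was 0.50 over all kept genes, against 0.36 between the *mir-60;spe-9* replicates and 0.30 between the *spe-9* replicates. The median of all kept genes was -0.23 at Day 10 relative to Day 7, a shift that the excess of lower genes rests on. With that median set to 0, 337 genes were higher and 287 lower past 2-fold, and 192 and 129 past both limits, and quantile normalization gave 323 and 274, and 160 and 136. The changes of single genes below should be read against this median. By size alone the difference was modest: 20 genes were higher and 36 lower past 4-fold.

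**Figure D1:**
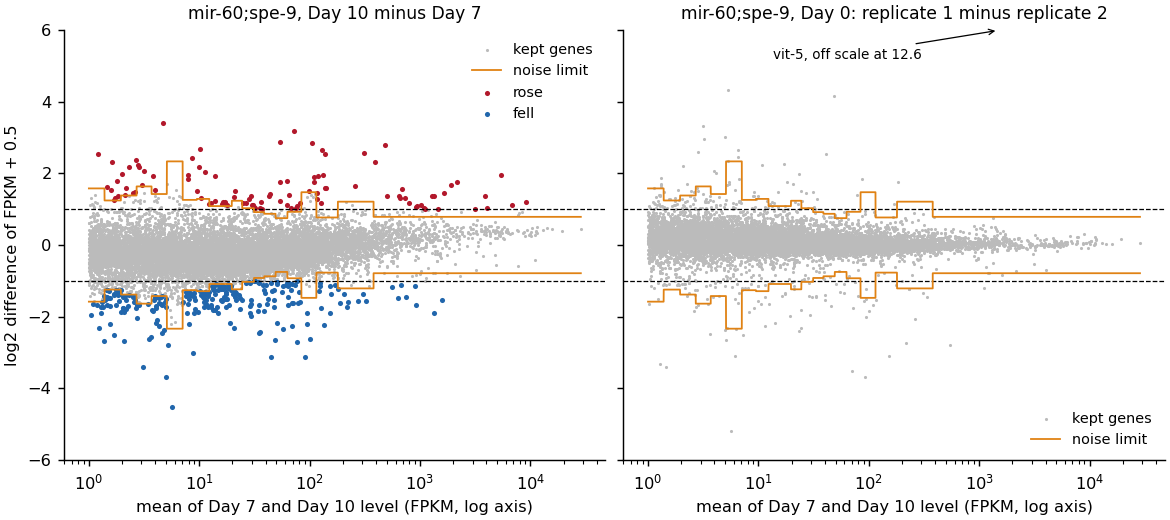
Difference of each kept gene against its mean level at Day 7 and Day 10 (FPKM, log axis), for Day 10 minus Day 7 (left) and for the Day 0 replicates of the same strain (right). Dashed lines mark 2-fold, orange lines the noise limit, red points the 105 genes that rose and blue points the 246 that fell; 1 gene, *vit-5*, listed at 0 in 1 replicate, lies off the right panel.

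Antimicrobial peptide genes held many of the falls. Of 54 kept members of a list of antimicrobial peptides and saposin-like genes, 16 fell, against 2.01% of all kept genes, and 1 rose. The members are short (a median of 292.5 bases), and short genes passed both limits more often than others. Of the 696 kept genes of 200 to 300 bases, 46 fell and 31 rose. The list median was only -0.14, as 25 of the 54 members were higher at Day 10. The 16 comprised *nlp-25*, *nlp-29*, *nlp-30*, *nlp-31*, *nlp-33*, *cnc-2*, *cnc-3*, *cnc-5*, *cnc-6*, *cnc-7*, *cnc-8*, *fip-5*, *fip-6*, *fipr-22*, *fipr-24* and *spp-9*, and the gene that rose was *fipr-1* (15.1 to 34.7 FPKM). The *nlp* and *cnc* genes among them encode glycine-rich peptides of the epidermis that are induced by fungal infection and, for *nlp-29*, by wounding. All 14 kept members of these 2 families, grouped after their values were seen, were lower at Day 10, and their summed share of all FPKM was 0.483% at Day 7 and 0.175% at Day 10. The median of the 14 was -1.73. Between the Day 0 replicates (1 minus 2) it was -1.02 in *mir-60;spe-9* and -0.33 in *spe-9*, so the group also differed between like libraries. Of the 11 members that fell, 6 differed over 2-fold between the *mir-60;spe-9* replicates.

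The most abundant were *nlp-29* and *nlp-31*, which lie next to *nlp-30* on chromosome V (WS220, from 3980163 to 3984722). *nlp-29* was at 2119 FPKM at Day 7 and at 567 at Day 10, against 2016 and 2878 in the Day 0 replicates of the same strain. In *spe-9* it was at 1569 and 1688 at Day 0 and at 543 at Day 7. The double mutant at Day 7 was thus within the range of the Day 0 libraries of its strain, and only the *spe-9* Day 7 and the Day 10 libraries were low, with a fall of 1.90 on the log2 scale from Day 7 to Day 10.

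*nlp-31* was highest at Day 7 (2384 FPKM), above its Day 0 replicates (1191 and 2128), and was at 814 at Day 10 and 522 in *spe-9* at Day 7. *nlp-30* fell from 163 to 18.4 FPKM (-3.12), with 91.7 and 273 at Day 0 and 24.9 in *spe-9* at Day 7. *nlp-33*, on the same chromosome but not adjacent, was already lower at Day 7 (133 FPKM) than at Day 0 (492 and 538) and was at 19.9 at Day 10. Its *spe-9* values were 493 and 445 at Day 0 and 23.6 at Day 7.

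*cnc-8*, on the X chromosome, was at 367 and 423 FPKM at Day 0, 222 at Day 7 and 46.3 at Day 10, and in *spe-9* at 359 and 355 at Day 0 and 57.4 at Day 7. For *cnc-8* and *nlp-33* the Day 0 replicates were close to each other (-0.21 and -0.13), and the falls of 2.25 and 2.71 exceeded them many times. Other members varied at Day 0 as much as between the days. *cnc-2* fell from 334 to 101 FPKM, but its Day 0 replicates were at 116 and 785 in *mir-60;spe-9* and at 91.0 and 298 in *spe-9*. *cnc-5* and *cnc-6* fell by 1.73 and 1.63 and *fip-6* by 1.48, each by less than it differed between the replicates of at least 1 strain, so that 12 of the 16 falls were larger than the gene's own differences at Day 0. In both strains replicate 2 was the higher one for *cnc-2*, *cnc-5* and *cnc-6*.

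These transcripts are short (a median of 220.5 bases over the 14), and an FPKM there stands for few reads. The low FPKM of genes with 1 transcript fell on steps of whole reads, from which 1 read was worth 0.638 FPKM at Day 7 and 0.734 at Day 10 for a transcript of 210 bases. The 18.4 FPKM of *nlp-30* at Day 10 then correspond to 25 reads, those of *nlp-33* to 36, and those of *nlp-25* to 2, against 256, 277 and 24 at Day 7. *nlp-29* rests on 971 reads or more in either library.

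**Figure D2:**
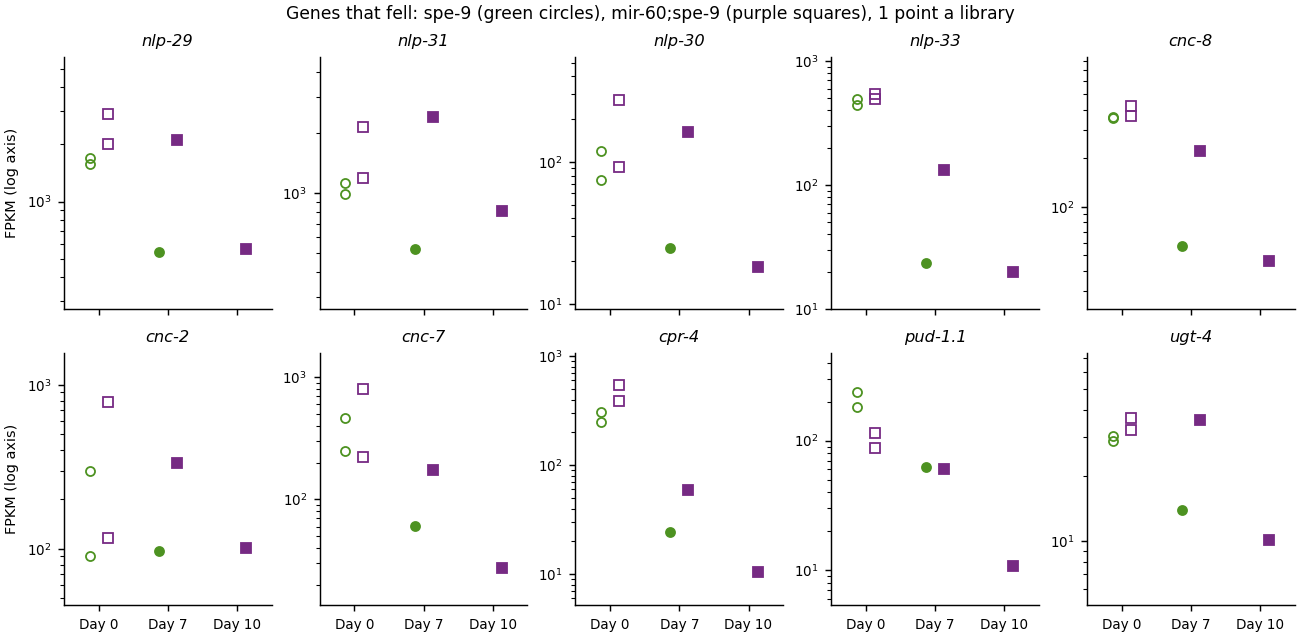
FPKM (log axes, 1 point a library) of 10 genes that fell, in *spe-9* (green circles) and *mir-60;spe-9* (purple squares) at Day 0, Day 7 and Day 10. For *nlp-29*, *nlp-30*, *nlp-33* and *cnc-8* the *spe-9* library at Day 7 and the *mir-60;spe-9* library at Day 10 lie close together and under every other library, while for *pud-1.1* both strains are alike at Day 7 (62.3 and 60.5 FPKM).

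UDP-glucuronosyl transferases, which attach sugar groups to foreign and internal compounds, were the detoxification family with the most falls. Of 41 kept *ugt* genes, 35 were lower at Day 10, 14 of them past 2-fold and 8 past both limits, against 4.2% and 2.01% of all kept genes, and none rose. The list median was -0.74. It was 0.19 between the Day 0 replicates. *ugt-4*, the most abundant of those that fell, was at 36.9 and 32.3 FPKM at Day 0, 36.3 at Day 7 and 10.12 at Day 10, and in *spe-9* at 30.6 and 28.8 at Day 0 and 13.8 at Day 7. *ugt-17* fell from 3.94 to 0.198 FPKM (-2.67) and *ugt-16* from 3.55 to 0.610. *ugt-12* went from 10.9 to 3.26 FPKM and *ugt-47* from 2.09 to 0.304, and both had been at 10 FPKM or more in every Day 0 library. These genes have long transcripts (a median of 1596 bases), and long transcripts as a class were lower at Day 10 (below). With the medians of the length classes set to 0, the median of the list was -0.39 and 28 of the 41 were lower.

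The other families of this kind had few or no calls. Among 41 glutathione S-transferases, which conjugate glutathione to oxidized compounds, *gst-13* fell from 61.0 to 16.7 FPKM and *gst-20* rose from 43.7 to 90.7, with a list median of -0.04. Of 36 cytochrome P450 genes 3 were lower past 2-fold and none passed the noise limit (*cyp-35A2*, 1.97 to 0.493 FPKM, *cyp-34A4*, 13.4 to 5.52, and *cyp-14A5*, 15.9 to 6.97), against 4.2% of all kept genes, and the median was -0.38, or -0.07 with length classes centred. Of 40 ABC transporters, which pump compounds out of cells, 6 were lower past 2-fold, *abt-2*, *pgp-2*, *pgp-6*, *pgp-11* and *pmp-4* among them, against the same 4.2%, and again none passed the noise limit. Their transcripts are long (a median of 3090 bases), and the list median of -0.48 was -0.004 with length classes centred.

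Among the largest single falls, *cpr-4*, a cathepsin B-like protease, was at 539 and 386 FPKM at Day 0, 59.4 at Day 7 and 10.4 at Day 10, and in *spe-9* at 307 and 247 at Day 0 and 24.6 at Day 7. It was thus far lower at Day 7 than in young adults in both strains, and it fell by a further 2.45 from Day 7 to Day 10. F01D5.5 had the opposite course up to Day 7, with 1.78 and 1.33 FPKM at Day 0 and 80.2 at Day 7, and then fell to 8.71, while it was at 73.0 in *spe-9* at Day 7. *pud-1.1* and *pud-2.2*, grouped after their values were seen and whose proteins are abundant in insulin receptor mutants (*daf-2*), fell from 60.5 to 10.8 and from 22.1 to 5.88 FPKM. Both have near-identical copies beside them, so their values may be shared among copies.

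Of the 15 largest falls some rest on libraries that do not repeat. C36A4.11 was listed at 11.4 FPKM at Day 7 and 0.0121 at Day 10, but at 0.0161 and 18.2 in the Day 0 replicates. Y6B3B.9 fell from 84.5 to 13.1, with 223 and 11.9 at Day 0. *npr-13*, a neuropeptide receptor, was at 6.12 and 0.130 FPKM and *lips-5*, a lipase, at 9.65 and 0.285, and their Day 0 replicates also differed over 2-fold. The differences of C29F3.7 (16.2 to 1.57 FPKM) and R08E3.2 (8.14 to 1.08) were far above those at Day 0, and in *spe-9* at Day 7 these genes were at 5.43 and 2.90.

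Several smaller families held further falls. Of 16 *nspc* genes, which encode nematode-specific peptides of 1 class and were grouped after their values were seen, all were lower at Day 10 and 9 fell, against 2.01% of all kept genes, *nspc-4* from 155 to 33.5 FPKM and *nspc-2* from 283 to 92.5. Their median length is 304 bases, and of the 802 kept genes of 300 to 400 bases 29 fell. The *nspc* sequences are much alike, and reads could be split among copies. The insulin-like peptides, ligands of the DAF-2 receptor, went both ways. *ins-7*, an agonist of DAF-2 known from the intestine, fell from 44.3 to 14.9 FPKM (26.9 and 16.2 at Day 0, 14.4 in *spe-9* at Day 7), whereas *ins-3* rose from 16.3 to 42.9 and *ins-20* from 11.6 to 30.1. Of 68 neuropeptide genes 5 fell, all of them the *nlp* genes of the antimicrobial kind named above, and 1 rose, against 2.01% and 0.857% of all kept genes. The neuropeptide genes are short as well (a median of 289.5 bases). Among genes for fatty acid activation *acs-3* (14.3 to 3.46 FPKM) and *acs-5* (23.4 to 7.81), both acyl-CoA synthetases, fell, as did the lipid-binding protein gene *lbp-7* (25.1 to 9.78). *dod-19*, a gene regulated by the transcription factor DAF-16, fell from 74.2 to 21.9 FPKM, and *nas-37* and *nas-9*, of the astacin metalloproteases, from 13.9 to 4.48 and from 14.5 to 5.62. *tre-5*, a trehalase, fell from 19.3 to 7.75 FPKM. Among 51 C-type lectins 3 fell (*clec-1*, *clec-97* and *clec-265*) and 1 rose (*clec-48*, 51.6 to 147 FPKM), against the same shares of all kept genes.

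The most abundant genes that fell, beside *nlp-29* and *nlp-31*, were C27B7.9 (1399 to 440 FPKM), K10C3.4 (1241 to 563), D1086.10 (1099 to 402), F16B4.4 (940 to 336), Y62H9A.6 (916 to 423) and F48D6.4 (774 to 345). C27B7.9 was at 1186 and 1360 FPKM at Day 0 and at 451 in *spe-9* at Day 7, close to the double mutant at Day 10. For F48D6.4 and K10C3.4 the *spe-9* library at Day 7 was at 849 and 931, above the double mutant at Day 10.

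The rises were led in abundance by a group of genes on the X chromosome. F53A9.1, F53A9.6, F53A9.7 and F53A9.8, which lie within a short stretch (WS220, from 8711543 to 8718852), all rose. F53A9.7 was at 179 and 188 FPKM at Day 0, 2220 at Day 7 and 8638 at Day 10, and in *spe-9* at 105 and 124 at Day 0 and 4453 at Day 7. F53A9.1 went from 991 to 3361 FPKM, F53A9.6 from 4316 to 9442 and F53A9.8 from 2145 to 5562. All 4 were higher at Day 7 than at Day 0 in both strains, and the Day 10 library held the highest value of each. The 6 kept genes with this prefix, grouped after their values were seen, made up 0.535% of all FPKM at Day 7 and 1.27% at Day 10, and of the others F53A9.2 was lower (13.8 to 6.51 FPKM).

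Other abundant rises came from several families. *lbp-9*, of the family of intracellular fatty acid-binding proteins, was at 1868 and 1960 FPKM at Day 0, 912 at Day 7 and 2917 at Day 10, and in *spe-9* at 2201, 2004 and, at Day 7, 1948. The Day 7 library of the double mutant was the low one of the 7. *fat-6*, a stearoyl-CoA desaturase that makes oleic acid, was at 450 and 489 FPKM at Day 0, 965 at Day 7 and 1933 at Day 10, just past 2-fold, while *spe-9* at Day 7 was at 2261. Of the lists that hold these genes, among 20 kept lipases and lipid-binding proteins 17 were lower, 1 rose and 2 fell (median -0.42), and among 14 desaturases and elongases 10 were lower and 1 rose (median -0.16). With the median of all genes set to 0, 6 of the 20 and 8 of the 14 were higher, and with length classes centred 5 and 8. *alh-8*, an aldehyde dehydrogenase, rose from 891 to 2430 FPKM. *nhr-17*, a nuclear hormone receptor gene, was at 10.9 and 11.6 FPKM at Day 0, 347 at Day 7 and 1025 at Day 10, and at 1350 in *spe-9* at Day 7. Of the 165 kept nuclear hormone receptors it was 1 of 2 that rose, with *nhr-170* (19.4 to 42.6), a share near the 0.857% of all kept genes, and 110 of the 165 were lower. With the median of all genes set to 0, 76 of the 165 were higher, and with length classes centred 87 were.

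Collagens of the cuticle and secreted proteins were represented by a few strong members. *col-130* was at 1.12 and 0.387 FPKM at Day 0, 89.5 at Day 7 and 534 at Day 10, and in *spe-9* at 0.407 and 0.510 at Day 0 and 127 at Day 7, and *col-48* rose from 3.31 to 16.8. The 52 kept collagens had a median of -0.24, next to that of all genes, and *col-184* fell from 62.1 to 21.5. *ttr-59*, of the transthyretin-related secreted proteins, was at 50.9 and 88.2 FPKM at Day 0, 40.1 at Day 7 and 235 at Day 10, with *spe-9* between 25.4 and 48.1 in its 3 libraries, and *ttr-6* rose from 281 to 722. In the same family *ttr-44* fell from 47.0 to 11.6 and *ttr-40* from 11.4 to 4.15. *fbxa-55*, an F-box gene, was at 1090 and 627 FPKM at Day 0, 131 at Day 7 and 655 at Day 10, and the *spe-9* values were 1170, 688 and, at Day 7, 188. The Skp1-related gene *skr-4*, whose product links F-box proteins to the ubiquitin ligase, fell from 44.7 to 13.9.

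F13E9.15 (120 to 840 FPKM), C05E11.6 (35.2 to 223), R02E4.3 (12.6 to 96.3) and F32A7.8 (13.7 to 130) had some of the largest rises. For F13E9.15, C05E11.6 and F32A7.8 the *spe-9* library at Day 7 was near the double mutant at Day 7 (103, 36.5 and 22.1 FPKM). F55A12.2 was at 25.1 FPKM at Day 7, the lowest of the 7 libraries, at 185 at Day 10 and between 241 and 524 elsewhere. The small heat shock protein gene *hsp-12.3* had the same shape, with 5.73 FPKM at Day 7, 15.1 at Day 10 and 12.85 to 21.1 elsewhere. In all, the Day 7 library was the lowest of the 7 for 15 of the 105 genes that rose, against 5.02% of all kept genes, and the Day 10 library was the highest for 91 of them (17.6% of all kept genes). For the 246 genes that fell, the Day 10 library was the lowest of the 7 for 156 (36.4% of all kept genes), and the Day 7 library was the highest for 107 (21%). Part of these places is set by the choice of the genes.

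**Figure D3:**
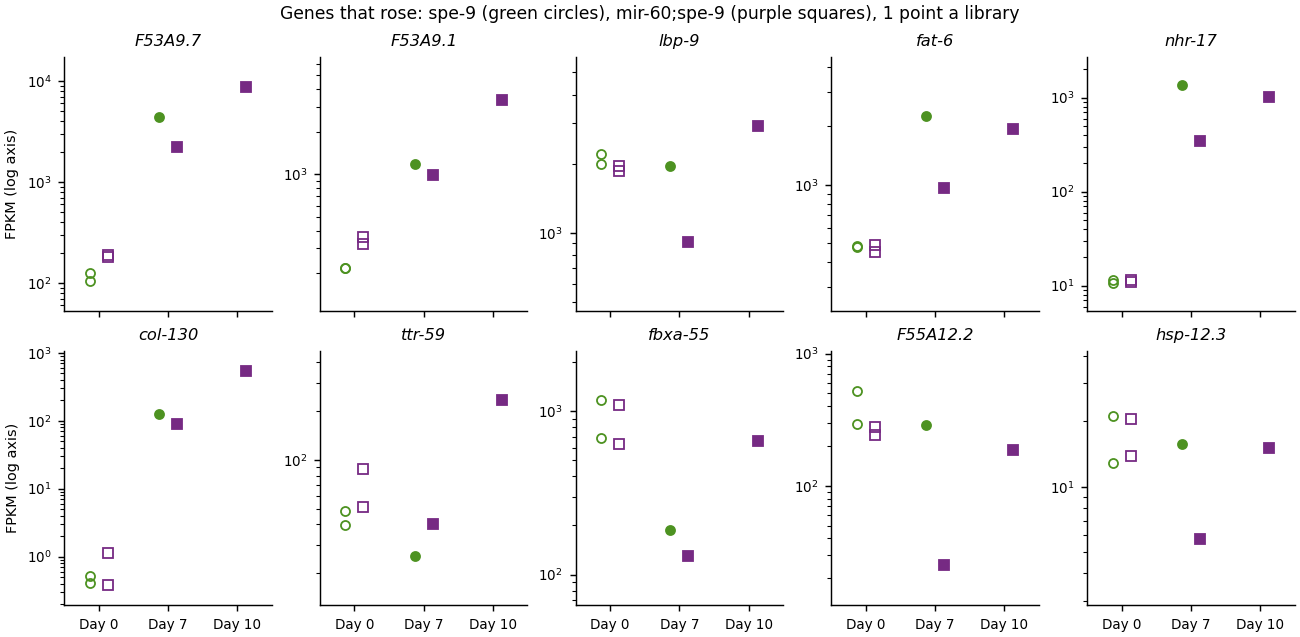
FPKM (log axes, 1 point a library) of 10 genes that rose, drawn as in the plot of genes that fell. F53A9.7, F53A9.1 and *col-130* are highest at Day 10, whereas *lbp-9*, F55A12.2 and *hsp-12.3* are lowest at Day 7 in *mir-60;spe-9* and at Day 10 *lbp-9* is above every other library while the others lie within or below the range of Day 0.

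Cytosolic ribosomal protein genes moved together by a small amount. All 72 kept members were higher at Day 10, by 0.18 to 0.63 on the log2 scale with a median of 0.40, and none passed 2-fold. Between the Day 0 replicates the median was 0.02. Their share of all FPKM was 19.2% at Day 7 and 21.5% at Day 10. All 72 stayed higher with the median of all genes set to 0 (median 0.62) and with the length classes centred (0.39). Mitochondrial ribosomal proteins did not all do so, with 29 of 64 higher and a median of -0.05. With the median of all genes set to 0, 50 of the 64 were higher (median 0.18), and with the length classes centred 40 were (0.06).

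Few genes that are used as readouts of oxidative and protein stress passed 2-fold, but several of their lists lay above the median of all genes. None of 18 superoxide dismutases, catalases and peroxidases (median 0.13), 14 thioredoxin and glutathione synthesis genes (0.29), 16 genes of the endoplasmic reticulum unfolded protein response (0.04), 8 of the mitochondrial one (-0.09), 32 proteasome subunits (0.07), 33 respiratory chain and ATP synthase genes (0.11), 47 chaperones outside the small heat shock family (-0.20) and 26 autophagy genes (-0.23) passed 2-fold. With the median of all genes set to 0, 29 of 32 proteasome subunits (median 0.30) and 28 of 33 respiratory chain genes (0.34) were higher. So were 12 of 14 thioredoxin and glutathione synthesis genes (0.52), 13 of 18 in the dismutase list (0.36) and 10 of 16 in the endoplasmic reticulum list (0.26). With length classes centred the medians of these lists, in the same order from the proteasome on, were 0.28, 0.23, 0.26, 0.19 and 0.40. Chaperones (26 of 47, 0.03), the mitochondrial response (4 of 8, 0.14) and autophagy genes (14 of 26, 0.003) were more evenly split. Of 12 small heat shock protein genes *hsp-12.3* was the 1 that rose. The 30 genes of the insulin pathway, stress kinases and stress factors had a median of -0.36 with none past 2-fold. It was -0.13 with the median of all genes set to 0 and -0.05 with length classes centred.

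**Figure D4:**
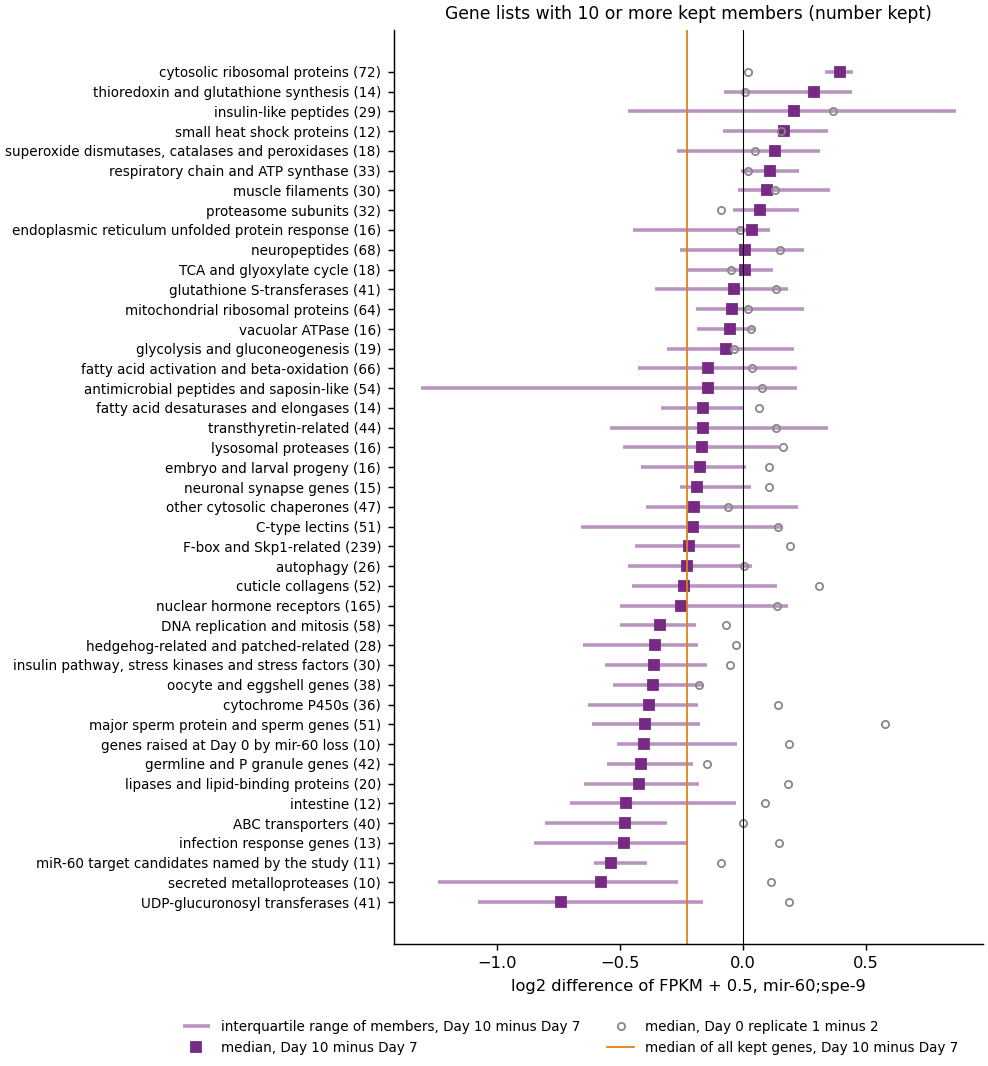
Median difference (purple squares) and interquartile range of the members (bars) for the gene lists with 10 or more kept members, without the groups formed after their values were seen, as log2 of FPKM + 0.5 at Day 10 minus Day 7, with the list's median between the Day 0 replicates (grey circles) and the median of all kept genes (orange line, -0.23). Of the lists drawn, cytosolic ribosomal proteins lie highest at 0.40 and UDP-glucuronosyl transferases lowest at -0.74.

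The genes that the study itself followed in connection with *mir-60* changed little from Day 7 to Day 10. Of 10 genes that the study named as raised at Day 0 by the loss of *mir-60*, a choice made on the Day 0 libraries of these data, 3 were higher and 7 were lower (median -0.40). With length classes centred, 6 of the 10 were higher (median 0.13). Only *asp-8*, an aspartyl protease gene, was past 2-fold (5.23 to 1.90 FPKM), and it stayed within the noise limit. *zip-10*, a bZIP transcription factor gene, was at 41.3 and 34.04 FPKM at Day 0, 24.5 at Day 7 and 17.5 at Day 10. *ugt-21* and *gst-38* were at 12.4 and 14.3 and at 17.7 and 20.2 FPKM. *lys-7*, a lysozyme gene named as lowered, was at 1019 and 938 FPKM, against 53.1 and 45.9 at Day 0. The list of candidate targets of miR-60 used here holds 11 of those named by the study and is not complete. These 11 were lower at Day 10, none past 2-fold, with a median of -0.54 and -0.17 with length classes centred. Of the reference genes the study used for qRT-PCR, *cdc-42* was at 332 and 228 FPKM and *pmp-3* at 42.5 and 25.2 (-0.54 and -0.75), and *ama-1* was among the genes listed at 0 at Day 7. The 5 kept vitellogenin genes, which encode yolk proteins and include near-identical copies, were lower by 0.09 to 0.30. Their values are uncertain, as *vit-2* was listed at 0 FPKM in all 7 libraries. The median of the 5 from Day 0 to Day 7 was 9.37 in *spe-9* and -1.89 in *mir-60;spe-9*.

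*mir-60* itself was listed at 0 FPKM in all 7 libraries, those of *spe-9* included, and so does not check the genotype, and *spe-9* was at or under 0.122 FPKM in each. Markers of tissues were examined in the same way. None of 42 germline and P granule genes (median -0.41), 38 oocyte and eggshell genes (-0.37), 58 genes of DNA replication and mitosis (-0.34) and 15 neuronal synapse genes (-0.19) passed 2-fold. Of 51 major sperm protein and sperm genes 45 were lower (median -0.40), 8 of them past 2-fold against 4.2% of all kept genes, and 2 fell, *spe-11* (1.92 to 0.269 FPKM) and *ssp-37* (19.6 to 8.93). Among 16 embryo and larval genes, *nas-37* fell and the others stayed within 2-fold. Of 12 intestinal marker genes *pept-1*, a peptide transporter (2.15 to 0.523 FPKM), and *ges-1*, a gut esterase (5.81 to 2.25), were lower past 2-fold without passing the noise limit, and the median was -0.47. Of 30 muscle filament genes *mup-2*, which encodes troponin T, rose from 23.2 to 48.5 FPKM, and the median was 0.10. With length classes centred the medians of the germline, oocyte, replication and intestinal lists were -0.05, -0.07, 0.01 and 0.06, whereas that of the sperm list was -0.43. Between the Day 0 replicates the median of the sperm list was 0.58 in *mir-60;spe-9* and 0.06 in *spe-9*. In the double mutant the list thus differed more between like libraries than between Day 7 and Day 10. The part of the tissues' makeup in the changes of single genes was not tested.

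The difference depended on transcript length. Its median was 0.02 among the 696 genes of 200 to 300 bases, -0.26 among the 2912 of 1000 to 1500 and -0.61 among the 201 of 5000 or more. Between the Day 0 replicates the medians in these classes were 0.09, 0.02 and -0.05 in *mir-60;spe-9* and 0.19, 0.07 and -0.06 in *spe-9*, a smaller slope the same way. The *spe-9* comparison of Day 7 with Day 0 had a like slope, from 0.59 to -0.37. Setting the median of 20 length classes to 0, an alternative added after the values were seen, gave 144 rises and 178 falls past both limits, of which 103 and 169 were among the 105 and 246. Of the 105 genes named by the rule that rose or fell, 96 did so under this alternative as well. The source of this trend was not tested.

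**Figure D5:**
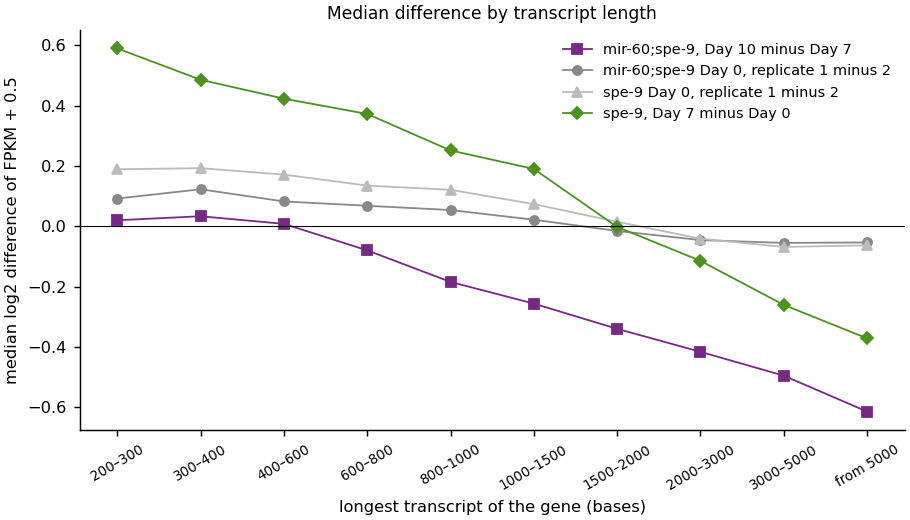
Median difference (log2 of FPKM + 0.5) in 10 classes of longest transcript length, for Day 10 minus Day 7 in *mir-60;spe-9* (purple), for the Day 0 replicates of both strains (greys) and for Day 7 minus Day 0 in *spe-9* (green). The purple line falls from 0.02 to -0.61 and the green line from 0.59 to -0.37, while the replicates stay between 0.12 and -0.05 in *mir-60;spe-9* and between 0.19 and -0.07 in *spe-9*.

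The change of *spe-9* from Day 0 to Day 7 shares no library with the comparison of Day 10 with Day 7 in *mir-60;spe-9*, and includes the start of PQ and FUDR besides age. In it, 22% of the kept genes were higher past 2-fold and 8.86% lower. Of the 168 genes higher at Day 10, 117 (69.6%) were higher past 2-fold in *spe-9* at Day 7 as well and 8 were lower. Of the 515 genes lower at Day 10, 176 (34.2%) were lower in *spe-9* and 71 (13.8%) were higher. Among the genes past both limits these numbers were 74 of 105 and 98 of 246. Both directions thus held more genes that moved the same way in the control than the kept genes as a whole. The share was larger among the higher genes, but so was that of all kept genes (22% higher against 8.86% lower). Both comparisons also have the slope with length in common. With length classes centred in both, the shares were 62.2% and 47.3%, against 16.8% and 11.5% of all kept genes.

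The level of the *spe-9* library at Day 7 was also set beside the 2 libraries of the double mutant. Of the 246 genes that fell, 141 (57.3%) were nearer to the *spe-9* Day 7 level at Day 10 than at Day 7, against 37.9% of all kept genes. Of the 105 that rose, 43 (41.0%) were. *nlp-29*, *nlp-30*, *nlp-33*, *cnc-8*, *ugt-4*, *fat-6* and *nhr-17* were of this kind, whereas F13E9.15, C05E11.6, *ttr-59*, *pud-1.1* and F01D5.5 were far from the *spe-9* Day 7 level only at Day 10. The genes that rose or fell were chosen on the same 2 libraries of the double mutant, so that choice sets part of their shares. The share of all kept genes carries their median of -0.23 and is not a like-for-like background. One library of each kind was available, so the spread of the distances to the *spe-9* level is not known.

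Some abundant transcripts outside these families also rose. *rpr-1*, the RNA component of RNase P, was between 6.64 and 17.1 FPKM at Day 0 in all 4 libraries, and at 2645 at Day 7 and 5425 at Day 10. *dao-6*, named for its expression in dauer larvae and aging adults, was at 17.1 and 24.8 FPKM at Day 0, 2107 at Day 7 and 4221 at Day 10. Both were also high in *spe-9* at Day 7 (3293 and 5397). *mai-1*, a homolog of the inhibitor of the mitochondrial ATPase, rose from 600 to 1280 FPKM, and ZK484.1, the most abundant gene past 2-fold, from 5602 to 12811. Histone genes, grouped after their values were seen, were higher in 51 of 61 kept members, with a median of 0.49. Of these, *his-10*, *his-14* and *his-16* rose, against 0.857% of all kept genes. The median length of the histone genes is 384 bases, and of the 802 kept genes of 300 to 400 bases 17 rose. Some histone genes had the same values in every library, such as *his-27* and *his-49*, or *his-58* and *his-66*. The 61 are therefore not all separate measurements. The rise of *his-16* (1.78) was smaller than the difference between the *spe-9* Day 0 replicates (-2.95), and *his-10* and *his-14* (359 to 932 and 717 to 1863 FPKM) belong to sets of near-identical copies that can share reads. RNA was selected by poly(A) tails, which *rpr-1* and most histone transcripts normally lack.

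Some genes could not be compared because a library listed them at 0. Of the genes long and abundant enough, 236 were listed at 0 at Day 7 and 6 at Day 10. Of these, 171 genes had 5 FPKM or more in each of the other 6 libraries, and all lay on chromosome IV between 1956725 and 4513305 (WS220). They include *htz-1*, a histone H2A variant, *ama-1*, the large subunit of RNA polymerase II, *mai-2* and the ribosomal protein gene *rpl-7A*, and none entered the counts above.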

How the data were processed

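RNA of whole animals was sequenced in single-end reads of 100 bases. The authors aligned the reads with TopHat 2.1.0 and Bowtie 2.1.0 to WS220, ran Cufflinks 2.2.1 on merged runs, and deposited FPKM per RefSeq transcript, already scaled for length and library size. Use of strand in counting is not given in the sources used here.

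From these, FPKM were summed by gene symbol, 0.5 was added and log2 taken (Python 3.11.15, pandas 2.3.3). Genes under 200 bases, under 1 FPKM or at 0 were left out. Read steps of genes of 200 to 400 bases gave the reads behind low values: 92.6% of 714 values at Day 7 and 92% of 740 at Day 10, from 0.5 to 10.5 reads, lay within 0.1 of a whole number, and 1 read was worth 1.15 times more FPKM at Day 10, so the Day 7 library was the deeper. The counting steps were tested on simulated data.

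The genes, 51 lists and comparisons were chosen with earlier results of these data known. Named were the 15 largest rises and falls of at least 5 FPKM past both limits, up to 5 members of each list past 2-fold (or the most abundant), the study's genes, vitellogenins and reference genes, and genes of at least 500 FPKM past 2-fold (256 in all). Members given in full lists and the 5 groups marked as such were named after their values were seen. Alternatives were pseudocounts, filters, scalings, transcript choice, thresholds and noise limits.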

Additional observations from a re-analysis of the deposited data

Results flagged for a closer look

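A stretch of chromosome IV (WS220, 1956725 to 4513305) was listed at 0 in the *mir-60;spe-9* Day 7 library alone. It holds 629 gene symbols, of which 0 were above 0 at Day 7 and 414 were above 0 at Day 10. In that library 171 genes were at 0 that had 5 FPKM or more in each of the other 6, and no other library had such a gene. The most abundant at Day 10 were *htz-1* (1835 FPKM), C35B1.5 (1601 FPKM) and Y76B12C.3 (1314 FPKM). In *spe-9* at Day 7 these were at 2455, 1616 and 1508 FPKM. These genes were outside the comparison of Day 10 with Day 7, so no change is given for them.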

How the results depend on the processing

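The number of genes past 2-fold depended on the scaling, the filter and the threshold. Higher and lower genes numbered 869 and 999 with no filter (20172 genes), 92 and 190 at a mean of at least 10 FPKM (7848 genes), 337 and 287 with the median at 0, 323 and 274 with quantile normalization, 576 and 2164 at 1.5-fold, and 20 and 36 at 4-fold. With the length trend removed, 334 were lower. Past both limits, 415 rose with no filter, 192 and 129 rose and fell with the median at 0, 160 and 136 with quantile normalization, 20 and 33 at 4-fold, and 168 and 515 with a noise limit at the 95th percentile. Falls numbered 138 at a pseudocount of 0.1 and 141 at 10 FPKM. Fewer or more genes entered the filter alternatives by construction, and the genes listed at 0 at Day 7 came in with no filter; for the others the cause was not tested.

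The percentage of higher genes that were also higher in *spe-9* was 34.8% with no filter, 76.1% at 10 FPKM, 65.3% with the median at 0, 52% with quantile normalization, 75.9% at 1.5-fold, 40% at 4-fold and 62.2% with the length trend removed. For lower genes it was 25.6% with no filter, 44.9% with the median at 0, 49.3% with quantile normalization, 30.6% at 4-fold and 47.3% with the length trend removed. Leaving out 1 *spe-9* Day 0 replicate gave 69.6% to 71.4% for higher genes and 33.2% to 36.3% for lower genes.

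Of the 105 named genes that rose or fell, none changed direction under the settings in which they entered. The number that no longer passed both limits was 15 at a pseudocount of 0.1, 1 at a pseudocount of 1, 14 with the median at 0, 22 with quantile normalization, 9 with the length trend removed, 15 with the most abundant transcript and 73 with no filter. No paired analysis was possible because Day 7 and Day 10 have 1 library each. That number of libraries, not depth, limits abundant genes, whereas short genes of low FPKM rest on few reads.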
